A study of Saccharomyces cerevisiae with 7 samples.

Results

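Most genes of budding yeast that have an intron have a single intron, so a host with 2 introns lets both be compared within the same transcript. The hosts described here are EFM5 (YGR001C), YOS1 (YER074W-A), SUS1 (YBR111W-A), DYN2 (YDR424C) and VMA9 (YCL005W-A). Each has 2 rows in the intron tables and encodes no ribosomal protein. That rule uses no measured value, but the hosts were listed with earlier results of these data known. They are 5 of 11 hosts with 2 introns, out of 289 hosts and 300 introns in all, and they hold 10 introns. Of the other hosts with 2 introns, 3 encode ribosomal proteins (RPL7A, RPL7B and RPS22B), and 3 more do not (HMRA1, HOP2 and TAD3). The last 3 also meet that rule but were not among the hosts listed for description, and their values are given at the end.

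RNA was sequenced in 7 libraries of Saccharomyces cerevisiae strain BY4741, haploid and of the a mating type, all without a further mutation in the labels and all grown in synthetic complete (SC) medium or on SC plates at 30 °C. Liquid cultures were seeded at an OD600 of 0.2. Log-phase cultures, harvested at an OD600 of 0.5, and cultures grown to saturation gave 2 libraries each. Other cultures were pre-grown for 4 h, filtered and given medium with 100 nM rapamycin, which blocks the growth kinase TOR. They were sampled at 1 h and at 4 h, with 1 library each. A lawn left to form on plates over 3 days gave the last library. The design text speaks of 10 samples, and the others were not analysed here. Whether replicate libraries stem from separate cultures is not in the labels, and the p-values below reflect only how these samples vary, which may be technical.

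Splicing joins the exons of a transcript and releases each intron as a lariat, a loop with a tail that is normally opened by the debranching enzyme and rapidly degraded. The series concerns introns that persist as linear RNA after excision when growth slows. With 2 introns in a host, transcription and the rate of messenger RNA decay are shared, while splicing and the fate of the excised piece can differ between the introns.

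Each library held between 1019287 and 9438379 reads on genes and between 25347 and 139090 on introns, and introns took from 0.826% of all reads at 1 h of rapamycin to 2.90% in saturated replicate 1. The strain label was checked by its markers. LEU2, URA3 and MET17, which BY4741 lacks, had at most 1, 44 and 12 reads in any library. The a-mating genes MFA1, MFA2 and STE2 lay between 8.15 and 626 CPM (counts scaled to the total gene reads of the library). The alpha-factor genes MF(ALPHA)1 and MF(ALPHA)2 were at most at 3.05, and STE3 lay between 5.21 and 16.0. Replicates of log phase and of saturation differed beyond sampling noise, with a chi-square per degree of freedom over genes of 15.7 and 34.7.

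In the R64 build, SUS1 lies on chromosome II from 462139 to 462579, VMA9 on chromosome III from 107023 to 107417, DYN2 on chromosome IV from 1319387 to 1319841, YOS1 on chromosome V from 307653 to 308123 and EFM5 on chromosome VII from 497133 to 498034. No other annotated gene overlaps any of these spans. Lengths follow from the deposited counts and TPM (a read count divided by length and scaled to a fixed library total). Intron 1, named in the direction of transcription, and intron 2 are 62 and 93 nt long in EFM5, 102 and 111 nt in YOS1, 96 and 80 nt in DYN2, 77 and 96 nt in VMA9, and 80 and 70 nt in SUS1. The exons measure 747, 258, 279, 222 and 291 nt in the same order. In all 5 hosts the exons and introns add up to the annotated span, so the host row counts exon sequence and each intron row the intron alone.

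EFM5 encodes a methyltransferase that modifies the translation elongation factor eEF1A. Its intron 2 had 1 and 0 reads in log phase, 136 and 24 in saturation, 4 at 1 h and 103 at 4 h of rapamycin, and 56 in the lawn. Intron 1 had 1 and 0, 11 and 3, 9, 17, and 2 reads in the same order, beside 535 and 146, 274 and 36, 703, 597, and 84 reads of the host. The reads of intron 2 in both saturated libraries, at 4 h and in the lawn thus lie above those of log phase and 1 h, and intron 1 had at most 17 reads in any library.

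Per nucleotide, EFM5 intron 2 was denser than its own exons in 4 libraries. Of all introns with host reads, 80 of 299 and 80 of 297 were denser than their host in saturation. At 4 h of rapamycin 32 of 297 were, and in the lawn 72 of 296. The read density of EFM5 intron 2 was 399% and 535% of that of the host in the saturated libraries, 139% at 4 h of rapamycin and 535% in the lawn. It was 1.50% and 0% in log phase and 4.57% at 1 h of rapamycin, so these 4 libraries do not overlap with the other 3. The median over all introns separated in the same way. It was 8.57% and 7.73% in log phase, 9.19% at 1 h, 53.8% and 43.5% in saturation, 28.2% at 4 h and 43.5% in the lawn. How many single introns separate so was not counted, here or for the other hosts below. This split of the libraries was not among the planned comparisons. Intron 1 stood at 2.25% and 0% in log phase, 48.4% and 100.4% in saturation, 15.4% and 34.3% at 1 h and 4 h of rapamycin, and 28.7% in the lawn. Ranked by density relative to host among all introns with host reads, intron 2 was number 276 of 297 in log phase replicate 1, 21 of 299 and 20 of 297 in saturation, 27 of 297 at 4 h and 13 of 296 in the lawn.

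Relative to the host, EFM5 intron 2 rose against log phase by a log2 value of 8.21 ± 0.75 (SE) in saturation (adjusted p = 2.56e-24), 6.56 ± 0.87 at 4 h of rapamycin (2.61e-12) and 8.51 ± 0.85 in the lawn (1.98e-20, all by the quasi-likelihood test of edgeR with Benjamini-Hochberg adjustment over 270 introns). At 1 h the value was 1.68 ± 1.48 (0.877). Each SE was derived from the log2 value and the p of its test and can be narrower than counting error. These folds rest on 1 log-phase read, and the counting interval of the ratio in saturation, 350 in value, runs from 61.4 to 12700. Intron 1 rose by 4.69 ± 1.15 in saturation and 3.97 ± 1.16 at 4 h (adjusted p = 9.68e-05 and 0.00138), with ratios of 30.7 (4.63 to 1294) and 19.4 (3.02 to 809). In the lawn intron 1 had a value of 3.79 ± 1.96 (adjusted p = 0.0751), and a value of 2.83 ± 1.31 at 1 h (0.355). Log-phase replicate 2 had 0 reads of either EFM5 intron, so no fold against log phase can be given without replicate 1, and the call of intron 1 at 4 h was then lost (adjusted p = 0.0684). Its value in the lawn passed without saturated replicate 1 or 2 (adjusted p = 0.0478 and 0.0483) and with limma (3.26, adjusted p = 0.00218).

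YOS1 encodes a small membrane protein of the Yip1 complex, which serves vesicle transport from the endoplasmic reticulum to the Golgi. Intron 2 had 4 and 0 reads in log phase, 65 and 8 in saturation, 2 at 1 h and 59 at 4 h of rapamycin, and 37 in the lawn. Intron 1 had 4 and 1, 23 and 1, 6, 32, and 12 reads, beside 244 and 72, 201 and 60, 420, 346, and 57 reads of the host. Intron 2 was the more read of the pair in both saturated libraries, at 4 h and in the lawn, and the less read at 1 h.

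The density of YOS1 intron 2 relative to its host was 3.81% and 0% in log phase, 75.2% and 31.0% in saturation, 1.11% at 1 h, 39.6% at 4 h and 151% in the lawn. Intron 1 stood at 4.15% and 3.51%, 28.9% and 4.22%, 3.61%, 23.4%, and 53.3%. The saturated libraries bracket a wide range for intron 1, and its saturated replicate 2 lies beside the log-phase values. Intron 2 rose relative to its host by 4.28 ± 0.72 in saturation, 3.69 ± 0.77 at 4 h and 5.62 ± 0.80 in the lawn (edgeR, adjusted p = 1.70e-08, 8.82e-06 and 3.11e-11). Intron 1 rose by 2.39 ± 0.81, 2.48 ± 0.80 and 3.68 ± 0.95 (adjusted p = 0.00493, 0.00380 and 0.000266). At 1 h the values were -1.39 ± 1.49 for intron 2 and -0.19 ± 1.43 for intron 1, and neither passed. The call of intron 1 in saturation rested on saturated replicate 1, without which the value was 0.17 (adjusted p = 0.970). Without log-phase replicate 1 it was 2.47 (adjusted p = 0.118), the call at 4 h was lost as well (2.57, 0.119), and with limma neither passed (0.0718 in saturation and 0.0552 at 4 h). Log-phase replicate 2 had 0 reads of intron 2, so its folds against log phase rest on 4 reads of replicate 1, and the counting interval of the ratio in saturation, 22.0 in value, runs from 8.08 to 83.9.

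DYN2 encodes the light chain of the motor protein dynein, which is also a part of the nuclear pore. Intron 2 had 4 and 0 reads in log phase, 22 and 4 in saturation, 5 at 1 h and 24 at 4 h of rapamycin, and 11 in the lawn. Intron 1 had 2 and 2, 10 and 3, 15, 15, and 2 reads, beside 184 and 60, 85 and 22, 411, 255, and 38 reads of the host. No library held more than 24 reads of either intron, so each value carries a wide counting error.

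The density of DYN2 intron 2 relative to its host was 7.58% and 0% in log phase, 90.3% and 63.4% in saturation, 4.24% at 1 h, 32.8% at 4 h and 101% in the lawn. That of intron 1 was 3.16% and 9.69%, 34.2% and 39.6%, 10.6%, 17.1%, and 15.3%. Both introns were thus denser in each saturated library than in either log-phase library, as was the median over all introns. Intron 2 rose by 3.81 ± 0.82 in saturation, 2.46 ± 0.86 at 4 h and 4.09 ± 1.01 in the lawn (edgeR, adjusted p = 8.04e-06, 0.00778 and 0.000120). Intron 1 rose by 2.81 ± 0.93 in saturation (adjusted p = 0.00396). Its values of 1.74 ± 0.92 at 4 h and 1.66 ± 1.63 in the lawn did not pass (0.0863 and 0.374). The call of intron 1 in saturation was lost without log-phase replicate 1 (1.81, adjusted p = 0.199) or saturated replicate 1 (3.01, adjusted p = 0.0550), and that of intron 2 at 4 h without log-phase replicate 2 (2.08, adjusted p = 0.0620). Log-phase replicate 1 holds all 4 log-phase reads of intron 2, and the counting interval of the ratio in saturation, 14.7 in value, runs from 4.94 to 59.5.

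VMA9 encodes a small membrane subunit of the V0 sector of the vacuolar proton pump (V-ATPase), and here the order of the pair is turned. Intron 1 had 6 and 3 reads in log phase, 35 and 10 in saturation, 4 at 1 h and 48 at 4 h of rapamycin, and 36 in the lawn. Intron 2 had 6 and 2, 18 and 2, 8, 19, and 7 reads, beside 446 and 128, 166 and 39, 653, 300, and 48 reads of the host. Intron 1 was the more read of the pair in both saturated libraries, at 4 h and in the lawn, and the less read at 1 h.

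The density of VMA9 intron 1 relative to its host was 3.88% and 6.76% in log phase, 60.8% and 73.9% in saturation, 1.77% at 1 h, 46.1% at 4 h and 216% in the lawn, where it was number 31 of 296 introns. Intron 2 stood at 3.11% and 3.61%, 25.1% and 11.9%, 2.83%, 14.6%, and 33.7%. For both introns the values of log phase and 1 h lie below all those of the other conditions, as they do for the median over all introns. Intron 1 rose by 3.78 ± 0.64 in saturation, 3.29 ± 0.67 at 4 h and 5.52 ± 0.71 in the lawn (edgeR, adjusted p = 2.22e-08, 4.44e-06 and 3.58e-13). Intron 2 rose by 2.73 ± 0.76, 2.14 ± 0.78 and 3.36 ± 1.06 (adjusted p = 0.000610, 0.0111 and 0.00279). The calls of intron 2 were lost in saturation without saturated replicate 1 (1.92, adjusted p = 0.240) and at 4 h without log-phase replicate 1 (1.94, adjusted p = 0.182).

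SUS1 encodes a small protein of the deubiquitinating module of the SAGA coactivator and of the TREX-2 complex, which serves messenger RNA export. Intron 1 had 5 and 2 reads in log phase, 27 and 4 in saturation, 6 at 1 h and 11 at 4 h of rapamycin, and 3 in the lawn. Intron 2 had 10 and 2, 50 and 5, 15, 22, and 13 reads, beside 134 and 32, 430 and 23, 250, 243, and 57 reads of the host. Relative to the host, SUS1 intron 2 was already dense in log phase, on 10 and 2 reads. It had a density of 31.0% and 26.0% of the host there and was number 58 of 297 and 65 of 294 introns, against a median over all introns of 8.57% and 7.73%. Intron 1 was number 114 of 297 and 70 of 294.

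The density of SUS1 intron 2 was 48.3% and 90.4% in saturation, 24.9% at 1 h, 37.6% at 4 h and 94.8% in the lawn. That of intron 1 was 13.6% and 22.7% in log phase, 22.8% and 63.3% in saturation, 8.73%, 16.5%, and 19.1%. Intron 2 was denser in each saturated library and in the lawn than in log phase, as was the median over all introns. The saturated replicate 1 of intron 1 differs little from log-phase replicate 2. Relative to the host neither intron passed the test in any condition. Intron 1 had values of 0.73 ± 0.75 in saturation, 0.05 ± 0.55 at 4 h and 0.31 ± 1.29 in the lawn, and intron 2 had values of 0.81 ± 0.64, 0.31 ± 0.69 and 1.65 ± 0.82 (edgeR, adjusted p of intron 2 in the lawn = 0.0637). In the lawn intron 2 passed with limma (1.60, adjusted p = 0.0380) and when saturated replicate 1 or 2 was left out (1.64, adjusted p = 0.0377 and 0.0330). The counting interval of the ratio in saturation runs from 0.684 to 4.45 for intron 1 and from 0.861 to 3.53 for intron 2. The ratios of VMA9 intron 1 (13.9), DYN2 intron 2 (14.7), YOS1 intron 2 (22.0) and EFM5 intron 2 (350) lie outside both. The intervals of YOS1 intron 1 (2.13 to 19.7), DYN2 intron 1 (2.21 to 31.7) and VMA9 intron 2 (2.89 to 18.6) overlap both. That of EFM5 intron 1 (4.63 to 1294) does not. Of the 453 saturated host reads of SUS1 behind these ratios, 430 are of replicate 1.

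**Figure D1:**
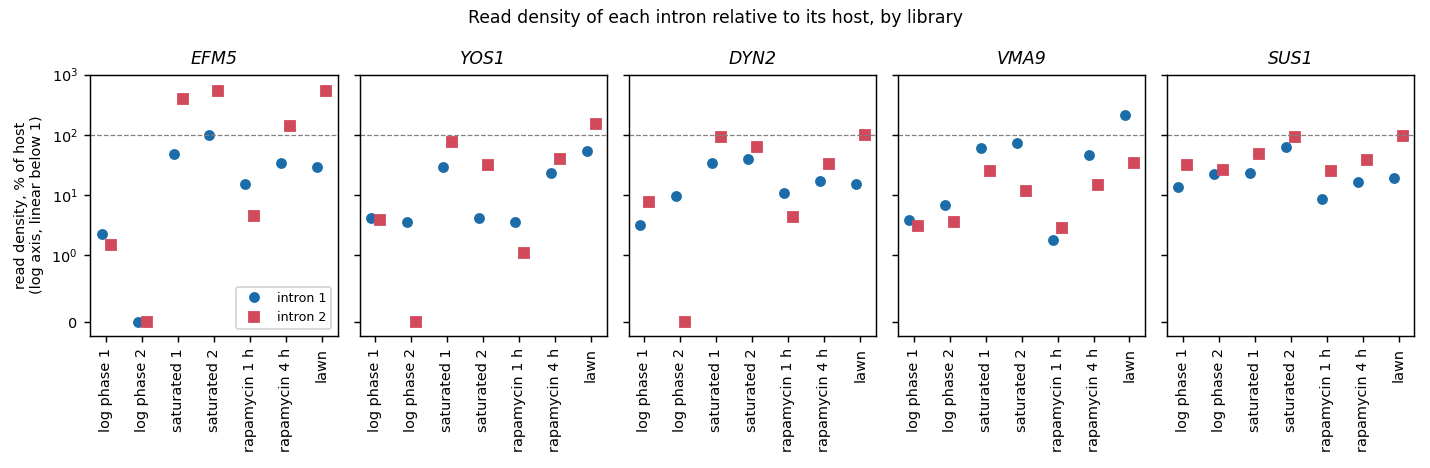
Read density of intron 1 (circles) and intron 2 (squares) as a percentage of the density of the host's exons (log axis, linear below 1), for the 7 libraries and 5 hosts, 1 point per library. EFM5 intron 2 lies above the dashed line of equal density (100%) in both saturated libraries, at 4 h of rapamycin and in the lawn, VMA9 intron 1 reaches 216% in the lawn, and SUS1 intron 2 stands at 26.0% or more in 6 libraries and at 24.9% at 1 h.

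Relative to the host, 8 of the 10 introns rose in saturation against log phase, beside 80.0% of all 270 introns tested and 68.3% of the 167 whose hosts are not ribosomal protein genes. At 4 h of rapamycin 7 of 10 rose (64.4% of all introns, 44.9% of those outside ribosomal protein genes), and in the lawn 6 of 10 (69.3% and 51.5%). At 1 h of rapamycin 0 of 10 rose (4.44% and 3.59%), where only EFM5 intron 1 had an unadjusted p under 0.05 (0.0312), and with limma none passed either. None fell in any of these comparisons, while 1.11% of all introns fell in saturation, 1.85% at 1 h, and 0.741% at 4 h, in the lawn and at 4 h against 1 h. Against 1 h of rapamycin, 6 of 10 rose at 4 h (62.2% and 49.1%): VMA9 introns 1 and 2 by 4.67 ± 0.80 and 2.36 ± 0.81, YOS1 introns 1 and 2 by 2.67 ± 0.80 and 5.08 ± 0.90, DYN2 intron 2 by 2.92 ± 0.84, and EFM5 intron 2 by 4.88 ± 0.74. The shares among the 10 lie near those of all introns, and these comparisons share their log-phase or rapamycin libraries. All 10 introns passed the minimum of 10 reads in a library, 9 of them only through libraries other than log phase, so the counts are a description.

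The median log2 change of the 10 introns relative to host was 3.29 in saturation, 2.47 at 4 h and 3.73 in the lawn, beside 2.21, 1.55 and 2.35 over all introns tested. Because most introns rose, the fit was also run with all introns centred on their median, which sets that median near 0. In saturation EFM5 intron 2 (6.28, adjusted p = 1.04e-09) and YOS1 intron 2 (2.08, adjusted p = 0.0456) then still stood higher, and at 4 h EFM5 intron 2 alone (5.35, adjusted p = 1.11e-05). In the lawn EFM5 intron 2 (6.45, adjusted p = 1.76e-08), YOS1 intron 2 (3.36, adjusted p = 0.00210) and VMA9 intron 1 (3.19, adjusted p = 0.000741) did. On that scale both SUS1 introns had values below 0 in these 3 conditions, from -2.04 to -0.68, and none passed.

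**Figure D2:**
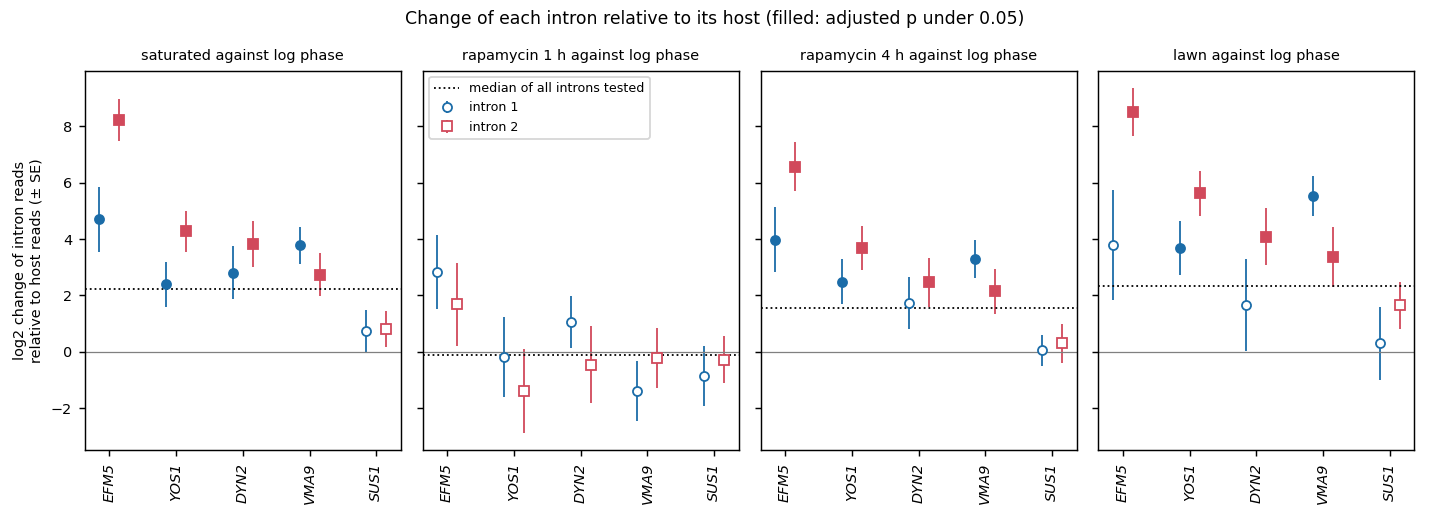
Log2 change of intron reads relative to host reads against log phase for intron 1 (circles) and intron 2 (squares), ± SE derived from the p of the test. The 5 hosts are shown in 4 conditions, and filled symbols have an adjusted p under 0.05. The dotted line is the median of all 270 introns tested (2.21, -0.12, 1.55 and 2.35 from left to right). EFM5 intron 2 has the highest value of the 10 in saturation, at 4 h of rapamycin and in the lawn, and the SUS1 introns lie below the median in those panels.

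The level of an intron alone, per gene reads of the library, is not set against its host, so a change of the host also enters it. By that measure all 10 introns rose in saturation against log phase (47.0% of 270 introns), 6 at 4 h of rapamycin (20.4%), 6 in the lawn (25.2%) and 0 at 1 h (1.11%). The 270 include introns of ribosomal protein hosts, and the share without them is not given here. Since 9 of the 10 passed the read minimum only through libraries other than log phase, these counts are a description. EFM5 intron 2 rose by 7.87 ± 0.71 in saturation and YOS1 intron 2 by 4.92 ± 0.69. SUS1 introns 1 and 2 rose by 2.94 ± 0.55 and 2.96 ± 0.54 (edgeR, adjusted p = 0.00182 and 0.00156). The SUS1 host itself had a value of 2.01 ± 0.53 there. Without saturated replicate 1 only 5 of the 10 remained past the threshold in saturation, and the SUS1 values were then 2.36 (adjusted p = 0.131) and 1.94 (adjusted p = 0.0782). At 4 h 2 passed without log-phase replicate 1, EFM5 intron 2 and YOS1 intron 2, both with 0 reads in the other log-phase library. With the Wald test of DESeq2, 6 passed in saturation, 2 at 4 h and 3 in the lawn.

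Among the host genes themselves, SUS1 passed the test in saturation and VMA9 in the lawn. SUS1 messenger RNA stood at 19.96 and 17.1 CPM in log phase, 92.2 and 22.6 in saturation, 26.5 at 1 h, 35.8 at 4 h and 43.4 in the lawn. It was called higher in saturation (2.01 ± 0.53, edgeR, adjusted p = 0.0116), while 27.9% of 5827 genes were higher and 25.1% lower. That call rests on saturated replicate 1, without which the value was 0.40 (adjusted p = 0.428). VMA9 stood at 66.4 and 68.3 in log phase, 35.6 and 38.3 in saturation, 69.2 at 1 h, 44.2 at 4 h and 36.6 in the lawn. It fell in the lawn (-1.31 ± 0.35, adjusted p = 0.0154), beside 20.7% of genes higher and 20.9% lower. Without log-phase replicate 1 or 2 its adjusted p was 0.0856 or 0.0522. In saturation its value was -0.57 ± 0.26 (0.0972). Scaled by plain library totals in place of TMM, VMA9 passed in saturation (-0.87, 0.0213) and not in the lawn (-0.88, 0.0627). EFM5, YOS1 and DYN2 passed in no comparison, with log2 values from -0.73 to 0.72. At 1 h and 4 h none of the 5 hosts passed, and 9.18% of genes were higher and 11.5% lower at 1 h, and 14.8% and 11.5% at 4 h. Between 1 h and 4 h 5.29% were higher and 0.978% lower. VMA9 also passed at 4 h with DESeq2 size factors (-1.02, adjusted p = 0.0384) and without saturated replicate 1 or 2 (-1.09 in each), and in saturation without replicate 2 (-0.83, adjusted p = 0.0119). YOS1 passed in saturation without saturated replicate 1 (0.81, adjusted p = 0.0275). YOS1 in saturation (0.0317), VMA9 at 4 h (0.0160) and both called values were the ones with an unadjusted p under 0.05.

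**Figure D3:**
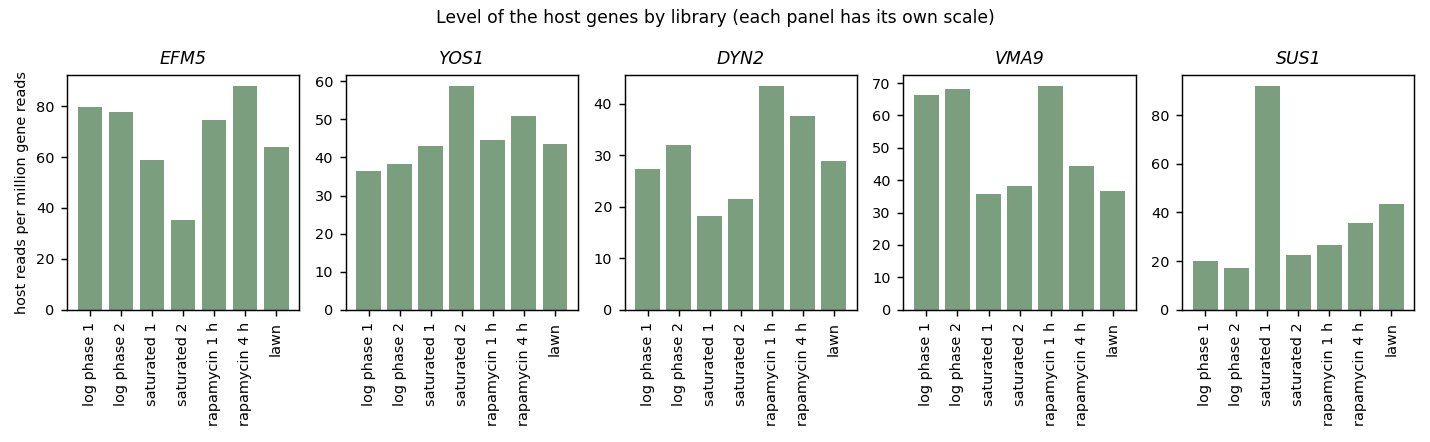
Level of the 5 host genes in CPM, 1 bar per library, each panel on its own scale from 0. The 2 saturated libraries stand at 92.2 and 22.6 for SUS1 and at 35.6 and 38.3 for VMA9.

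Intron 2 was next set directly against intron 1, so that host and library cancel. Of the reads of both EFM5 introns, intron 2 held 92.0% in saturation (160 of 174 reads, exact 95% interval 86.9% to 95.5%), 30.8% at 1 h of rapamycin (4 of 13, 9.09% to 61.4%), 85.8% at 4 h (103 of 120, 78.3% to 91.5%) and 96.6% in the lawn (56 of 58, 88.1% to 99.6%). In log phase the pair had 1 read each, and equal density would give 60.0%. The interval of the 1 h library thus lies apart from those of saturation, 4 h and the lawn.

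For YOS1 the share of intron 2 was 44.4% in log phase (4 of 9 reads, 13.7% to 78.8%), 75.3% in saturation (73 of 97, 65.5% to 83.5%), 25.0% at 1 h (2 of 8, 3.19% to 65.1%), 64.8% at 4 h (59 of 91, 54.1% to 74.6%) and 75.5% in the lawn (37 of 49, 61.1% to 86.7%). For DYN2 intron 2 had 4 of 8 reads in log phase (15.7% to 84.3%), and its share was 66.7% in saturation (26 of 39, 49.8% to 80.9%), 25.0% at 1 h (5 of 20, 8.66% to 49.1%), 61.5% at 4 h (24 of 39, 44.6% to 76.6%) and 84.6% in the lawn (11 of 13, 54.6% to 98.1%). In both hosts the log-phase interval is wide and overlaps those of the other conditions.

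VMA9 went the other way. Its intron 2 held 47.1% of the pair's reads in log phase (8 of 17, 23.0% to 72.2%), 66.7% at 1 h (8 of 12, 34.9% to 90.1%), 30.8% in saturation (20 of 65, 19.9% to 43.4%), 28.4% at 4 h (19 of 67, 18.0% to 40.7%) and 16.3% in the lawn (7 of 43, 6.81% to 30.7%). Equal density would give 55.5%, above the intervals of saturation, 4 h and the lawn. SUS1 kept intron 2 at 63.2% in log phase (12 of 19), 63.95% in saturation (55 of 86, 52.9% to 74.0%), 71.4% at 1 h (15 of 21), 66.7% at 4 h (22 of 33) and 81.3% in the lawn (13 of 16), and these intervals overlap.

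**Figure D4:**
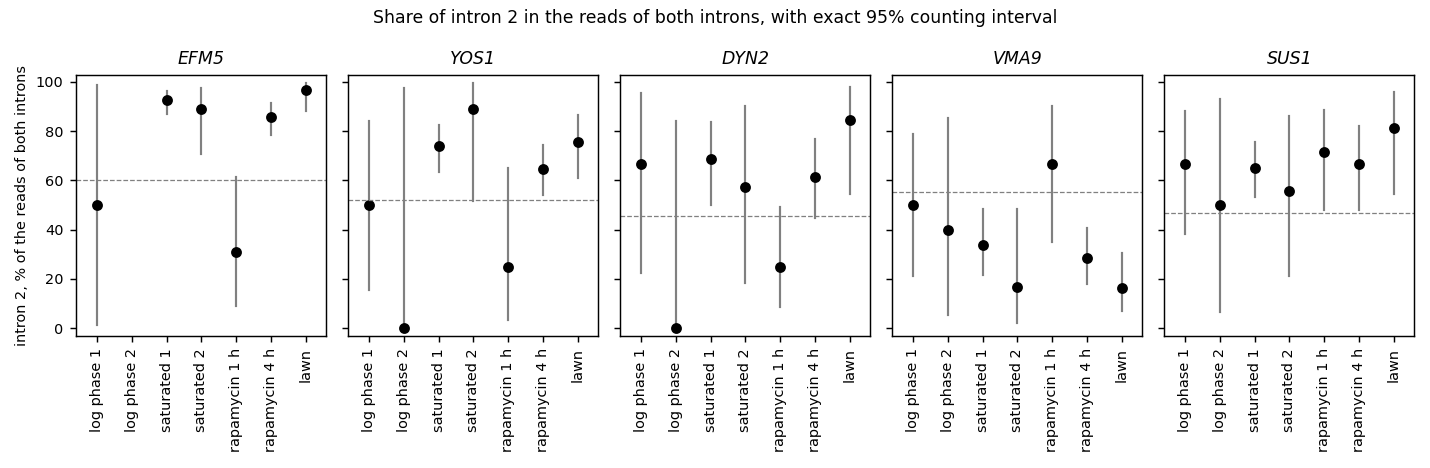
Share of intron 2 in the reads of both introns (percent), by library, with the exact 95% counting interval as a bar. The dashed line is the share that equal read density would give, and EFM5 has no point for log phase 2, which held 0 reads of the pair. The point of 1 h of rapamycin lies below those of 4 h and the lawn for EFM5, YOS1 and DYN2, and above them for VMA9.

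The 2 introns of a host were tested for unequal change among the 10 hosts with at least 10 reads of the pair in a library. Against log phase no member passed in any condition, with 10.0%, 30.0%, 0.00% and 10.0% of the hosts called in saturation, at 1 h, at 4 h and in the lawn, and the only unadjusted p under 0.05 of a member was that of VMA9 in the lawn (-2.17 ± 0.94, unadjusted p = 0.0310). With limma, EFM5 (3.19, adjusted p = 0.00164) and YOS1 (2.78, adjusted p = 0.00377) passed in saturation, and EFM5 (4.50, adjusted p = 0.000671) and DYN2 (2.94, adjusted p = 0.0190) in the lawn. The log-phase libraries together held only 2 to 19 reads of each member's pair, and log-phase replicate 2, with 0 reads of either EFM5 intron, enters the limma fit of EFM5 through the pseudocount of 0.5 read alone.

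At 4 h against 1 h of rapamycin, intron 2 rose relative to intron 1 in EFM5 (3.74 ± 1.35, edgeR, adjusted p = 0.0222) and DYN2 (2.23 ± 0.74, 0.0196). It fell in VMA9 (-2.31 ± 0.96, 0.0376). These are 3 of 5 members, beside 70.0% of the 10 hosts called in either direction. The called hosts outside the members, RPL7A (-3.60), RPL7B (-3.07), HMRA1 (-2.70) and RPS22B (-1.72), all fell. YOS1 (2.41 ± 1.30, 0.0984) and SUS1 (-0.31 ± 0.84, 0.713) did not pass. The counting intervals of these ratios run from 3.26 to 65.6 for EFM5, 1.28 to 19.98 for DYN2, 0.0398 to 0.862 for VMA9, 0.905 to 58.0 for YOS1 and 0.198 to 3.02 for SUS1. The calls of EFM5 and VMA9 were lost when any 1 of the 4 replicated libraries was left out, with adjusted p from 0.0641 to 0.0928 for EFM5 and from 0.0927 to 0.214 for VMA9, and that of DYN2 without saturated replicate 1 (0.201) or 2 (0.214). Those libraries do not enter the difference but give its spread. With limma EFM5 passed (0.0128) and the other two did not.

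Saturation and lawn were also set against 1 h of rapamycin, in comparisons chosen after seeing the data that share that single library. Against 1 h, intron 2 was higher relative to intron 1 in saturation for EFM5 (4.61 ± 1.34, edgeR, adjusted p = 0.0133), DYN2 (2.53 ± 0.72, 0.0133) and YOS1 (3.16 ± 1.29, 0.0480), with 30.0% of the 10 hosts called higher. In the lawn it was higher for EFM5 (5.87 ± 1.64, 0.00636) and DYN2 (3.95 ± 0.96, 0.00448) and lower for VMA9 (-3.32 ± 1.04, 0.0113), with 40.0% called. VMA9 in saturation (-2.18 ± 0.95) and YOS1 in the lawn (3.14 ± 1.35, 0.0511) lay just beyond the threshold. SUS1 had values of -0.50 ± 0.76 and 0.77 ± 1.08. The 30.0% called higher in saturation are EFM5, DYN2 and YOS1 themselves, while HMRA1 (-2.42) and RPL7A (-1.61) were called lower. The 40.0% in the lawn are EFM5, DYN2, VMA9 and RPL7A, which was lower (-2.61). Without saturated replicate 1 no member passed in either comparison, and without replicate 2 EFM5 in the lawn alone did (0.0468). Without log-phase replicate 1 or 2, DYN2 alone kept its call in each (0.0209 and 0.0206 in saturation, 0.00435 and 0.00427 in the lawn). The 1 h library holds 13, 20, 8, 12 and 21 reads of the pairs of EFM5, DYN2, YOS1, VMA9 and SUS1. The log-phase libraries together hold 2, 8, 9, 17 and 19 in the same order, so for YOS1 and VMA9 the 1 h reference is the sparser.

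Per nucleotide, SUS1 intron 2 was denser than intron 1 in 7 of 7 libraries, with a mean log2 ratio of 1.09 ± 0.63 (SD, n = 7, exact sign-flip permutation test, p = 0.0156, the smallest that 7 libraries allow, and 0.0312 after Benjamini-Hochberg adjustment over 10 hosts). It was 1 of 5 hosts that passed (50% of the 10), beside HMRA1, RPL7A, RPL7B and RPS22B, which had intron 2 denser in 7 of 7 libraries and the same adjusted p. With any of the 4 replicated libraries left out the adjusted p was 0.0625, since 6 libraries allow no smaller p before adjustment than 0.0312. VMA9 intron 2 was denser in 1 of 7, with a mean of -1.20 ± 1.14 (SD, exact permutation p = 0.0469, adjusted 0.0781). EFM5 (1.18 ± 2.11), DYN2 (0.46 ± 1.57) and YOS1 (0.37 ± 1.55, all SD, n = 7) had intron 2 denser in 4, 5 and 4 libraries. For those 3 hosts the spread between libraries exceeded the mean, and the empty log-phase library of EFM5 enters through the pseudocount here too. The permutation test treats the 7 libraries as independent draws, which libraries of the same condition are not, and each SD mixes conditions.

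The pattern of each intron over the 7 libraries, as log2 reads per host read, was compared with that of 233 or 234 introns of other hosts with at least 50 reads, as a description only, since all points share the libraries and their depth. EFM5 intron 2 was most like the introns of RPL32 (Pearson r = 0.998), HNT1 (0.996) and RPL43A (0.996), and intron 1 most like those of RPL18B (0.965), LSM7 (0.963) and YOP1 (0.962). YOS1 intron 2 was most like those of RPS23B (0.995), PHO85 (0.986) and RPS6A (0.980), and intron 1 like those of RPS18B (0.985) and RPL21B (0.955). DYN2 intron 2 followed RPL37A (0.983), YSC84 (0.982) and RPS23B (0.981), and intron 1 followed OM14 (0.975), RPL24B (0.959) and RPS22B intron 2 (0.936). VMA9 intron 1 was closest to RPL20B (0.991), APS3 (0.991) and UBC4 (0.988), and intron 2 to RPS30B (0.995), RPS11A (0.993) and RPL16B (0.992). SUS1 intron 1 was closest to UBC12 (0.9495), ECM9 (0.929) and TFC3 (0.897), and intron 2 to RPL6B (0.939), BMH2 (0.926) and RBS1 (0.921). Within a host, the pair correlated at 0.973 in VMA9, 0.921 in EFM5, 0.889 in YOS1, 0.723 in SUS1 and 0.707 in DYN2. The introns of other hosts that followed an intron more closely than its own neighbour did numbered from 14 for VMA9 intron 1 to 193 for DYN2 intron 2.

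The partner genes of the hosts were looked at by their complexes, all 31 of them tested. Of 7 partners of SUS1 in the SAGA module and TREX-2, 4 were higher in saturation, beside 27.9% of all genes tested. In the lawn 1 was higher and 1 lower (20.7% and 20.9% of all genes), and at 1 h of rapamycin 1 was lower (11.5%). SGF73, which anchors the module, stood at 55.1 and 49.6 CPM in log phase and 141 and 70.6 in saturation (1.35 ± 0.35, edgeR, adjusted p = 0.0107). SGF11, another subunit of it, rose by 1.35 ± 0.37 (0.0135). Of 7 partners of VMA9 in the V0 sector, 5 were lower in saturation and 6 in the lawn, beside 25.1% and 20.9% of all genes, and 1 was lower at 4 h (11.5%). VMA3, which encodes a proton-carrying ring subunit, stood at 529 and 623 in log phase, 110 and 97.1 in saturation and 197 in the lawn (-2.16 ± 0.30 and -1.98 ± 0.38, adjusted p = 0.000429 and 0.00367). VMA16, another ring subunit, fell by 1.70 ± 0.27 in saturation and 1.85 ± 0.36 in the lawn.

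Of 10 partners of DYN2 in dynein, dynactin and the nuclear pore, 5 were lower and 1 higher in saturation (25.1% and 27.9% of all genes), and 2 lower in the lawn (20.9%). The 2 in the lawn and the 1 higher lie at or below the share of all genes. PAC11, the dynein intermediate chain, stood at 39.9 and 57.1 in log phase and 5.79 and 13.7 in saturation (-2.24 ± 0.43, adjusted p = 0.00246). ARP1, of dynactin, fell by 1.59 ± 0.45 there (0.0156). YOS1 has 2 partners in the Yip1 complex, and 0 of 2 passed in any comparison. Unadjusted p-values under 0.05 were those of YIP1 at 1 h and 4 h and of YIF1 in the lawn.

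Of 5 partners of EFM5, eEF1A and its other methyltransferases, 3 were lower and 1 higher in saturation (25.1% and 27.9% of all genes). Lower were also 2 at 1 h (11.5%), 2 at 4 h (11.5%) and 3 in the lawn (20.9%), and 1 was higher at 4 h against 1 h (5.29%). The 1 higher in saturation was EFM6, a methyltransferase of eEF1A, named after its value was seen (2.20 ± 0.47, adjusted p = 0.00390). EFM4, another of them, stood at 46.0 and 42.7 CPM in log phase and 2.65 at 1 h of rapamycin (-4.34 ± 0.62, adjusted p = 0.00118), and at 22.6 at 4 h, where the fall against log phase did not pass (-1.31 ± 0.50, 0.0835). TEF1, which encodes eEF1A, fell by 3.05 ± 0.46 at 1 h and 1.92 ± 0.33 in saturation, but TEF1 and TEF2 are near-identical copies and the split of reads between them is uncertain. The number of partners called higher in saturation, 6 in all, dropped to 1 without log-phase replicate 1 or 2 and to 2 without saturated replicate 1. In the lawn 12 were lower, and 6 without log-phase replicate 1. At 1 h 3 were lower, and 10 without saturated replicate 1 or 2, and at 4 h 3 were lower, 0 and 1 without log-phase replicate 1 and 2, and 13 without either saturated library.

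The other hosts with 2 introns frame these values. The spans of RPL7A, RPL7B and RPS22B overlap the small nucleolar RNA genes SNR39, SNR59 and SNR44 in the annotation, and intron 2 held between 93.2% and 99.8% of the reads of the pair in every group. The part of small nucleolar RNA in these counts was not tested. TAD3, which encodes a subunit of a transfer RNA deaminase and overlaps NKP2 in the annotation, had 0 to 12 reads of either intron per library, and its pair passed in no comparison. HOP2, a meiotic gene, had at most 9 reads of an intron in any library and was not tested. HMRA1, a silent copy of the a-mating gene with a near-identical copy at the mating-type locus, had intron 2 at 88.9% in log phase (8 of 9 reads), 88.2% at 1 h (15 of 17), 52.3% at 4 h (34 of 65), 56.8% in saturation (50 of 88) and 53.8% in the lawn (14 of 26). At 4 h against 1 h its intron 2 changed relative to intron 1 by a log2 value of -2.70 ± 0.99 (edgeR, adjusted p = 0.0222). Whether those reads come from the silent or the expressed copy cannot be told apart.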

How the data were processed

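Per the labels' protocols, ribosomal RNA was removed from total RNA, which was broken by alkali, size-selected and sequenced from a single end. The submitters' processing notes name cutadapt 1.8, STAR 2.4 and build R64 (sacCer3). How reads were counted, on which annotation and with or without strand, is not given in the sources used here. Per the file headers, the authors deposited read counts per library for 6665 genes and 300 introns, taken as raw counts because they are whole and sum to different totals. The deposited TPM values, per the file headers, served here for densities and lengths. Symbols and spans come from a RefSeq table of R64, which matched 5989 genes by locus tag and not the other 676. Intron sequences and coordinates were not used here.

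The members, lists and tests were chosen with earlier results of these data known. Tests used edgeR 4.0.16 in R 4.3.3 (quasi-likelihood, two-sided, Benjamini-Hochberg at 0.05) in 1 fit of 7 libraries in 5 groups with 2 residual degrees of freedom, where conditions with 1 library borrow the spread of the replicated ones. Genes (5827 after the low-count filter of edgeR) were scaled by TMM. Introns with at least 10 reads in a library (270) were tested at their own level, scaled by gene reads, and relative to the host by a fit of paired host and intron columns with a library term. Intron 2 was set against intron 1 in the same way for 10 hosts. In the last 2 fits the prior degrees of freedom were infinite, so the spread was pooled fully. On simulated data the steps recovered the changed features, except that the fit of pairs missed some and called some unchanged hosts, which is why limma 3.58.1 (log2 ratios, pseudocount 0.5) stands beside it. The introns changed in the simulation were given more log-phase reads than the member introns have. Recovery there does not speak for folds that rest on few log-phase reads. DESeq2 1.42.0 was another alternative. Figures were drawn with matplotlib 3.10.9. The text names the 5 hosts and their introns, the other hosts with 2 introns, up to 2 partners per list with the largest change past the threshold in a comparison (EFM6, YIP1 and YIF1 were named outside this rule after their values were seen), and the 3 introns most like each intron, of which 1 is not reported here. Values after ±, unless marked SD, are approximate standard errors derived from the log2 value and the p of its test. At few reads they can be narrower than the counting intervals. Shares have exact binomial (Clopper-Pearson) intervals and ratios of reads Fisher's exact intervals at 95%, and both kinds of interval cover counting error only.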

Additional observations from a re-analysis of the deposited data

How the results depend on the processing

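The calls rest on few reads: single introns had 0 to 10 reads in a log-phase library, 2 of the 5 groups have 2 libraries and the others 1, so a fold against log phase has a wide counting interval and small differences between the introns of a pair were not detectable at this depth. The cause of the changes below was not tested. A minimum of 50 reads leaves only 3 of the 10 introns to test. The alternative with intron lengths from other sources was not run. EFM5 intron 2 kept its direction and its call relative to host in saturation, at 4 h of rapamycin and in the lawn under limma, with all introns centred on their median (by the median ratio of intron to host reads in each library) and with log-phase replicate 2 or either saturated library left out. Without log-phase replicate 1, log phase holds 0 reads of EFM5 introns 1 and 2, YOS1 intron 2 and DYN2 intron 2, so their fitted values against log phase, among them the upper ends of the ranges given below for YOS1 intron 2 and DYN2 intron 2, depend on the prior count and are no measured folds.

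Hosts called lower numbered 1 in saturation with plain library totals (0 in the report), 1 at 4 h with DESeq2 size factors (0) and 0 in the lawn with plain totals (1). With 1 library left out they ranged from 0 to 1 in saturation, at 4 h and at 4 h against 1 h, and from 0 to 2 in the lawn.

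Introns higher by their own level, 10 in saturation, 6 at 4 h, 6 in the lawn and 6 at 4 h against 1 h, numbered 3, 2, 3 and 2 with the minimum of 50 reads and 6, 2, 3 and 3 with the Wald test of DESeq2, and 1 at 1 h with plain totals. With 1 library left out they ranged from 5 to 10 in saturation and from 2 to 6 at 4 h. Introns higher relative to host, 8, 7, 6 and 6 in the same order, numbered 2, 2, 3 and 2 with the minimum of 50 reads and 2, 1, 3 and 3 with all introns centred on their median, and 3 at 4 h against 1 h with DESeq2. They ranged from 5 to 8 in saturation and from 4 to 7 at 4 h with 1 library left out.

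Hosts with intron 2 higher relative to intron 1 were 2 with limma against 0 in saturation and in the lawn. At 4 h against 1 h, limma and DESeq2 gave 1 higher and 0 lower against 2 and 1, and leaving out a library gave 0 to 1 higher and 0 to 0 lower. In saturation against 1 h, 1 was lower with limma and with the spread taken from all introns, against 0, and leaving out a library gave 0 to 1 higher against 3. In the lawn against 1 h it gave 0 to 1 higher against 2 and 0 to 0 lower against 1. The mean log2 density ratio of SUS1 ranged from 1.08 to 1.24 with 1 library left out, at an adjusted exact permutation p of 0.0625.

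The labels give log phase and saturation the replicate numbers 1 and 2. The deviations of same-numbered libraries correlated at r = 0.163 over 5827 genes, but with 2 pairs they share only a number. With the replicate number as a block, introns higher by their own level at 4 h were 3 against 6, and partners lower at 4 h were 7 against 3. The block left 0 hosts called for intron 2 against intron 1 at 4 h against 1 h (higher 0, lower 0), in saturation against 1 h (higher 0) and in the lawn against 1 h (higher 0, lower 0). It turned the sign of 2 hosts at 1 h that did not pass, SUS1 (-0.28) and YOS1 (0.070).

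Partners higher in saturation (6) were 3 with plain totals and 3 with DESeq2, and 1 to 4 with a library left out. Partners lower at 4 h (3) were 7 with DESeq2 size factors and 5 with its Wald test, and 0 to 13 with a library left out. At 4 h 1 was higher with plain totals against 0, with a range of 0 to 1. In the lawn 3 were higher with plain totals against 1, with a range of 0 to 1, and 7 lower against 12, with a range of 6 to 17. Partners lower at 1 h (3) ranged from 2 to 10. At 4 h against 1 h those higher (1) ranged from 1 to 2 and those lower (0) from 0 to 4.

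The other changes of sign are of values that did not pass. With plain totals the host level was 0.04 for VMA9 and 0.26 for YOS1 at 1 h, 0.22 for YOS1 in the lawn and 0.16 for EFM5 at 4 h, and the intron level at 1 h was 0.20 for SUS1 intron 2, 0.21 for DYN2 intron 2 and 0.13 for YOS1 intron 1. DYN2 at 4 h was -0.065 with DESeq2 size factors and -0.069 with the Wald test, and ranged from -0.13 to 0.049 with a library left out, as YOS1 did from -0.036 to 0.10. The level of DYN2 intron 2 at 1 h was 0.12 with DESeq2. Left-out libraries moved the level at 1 h from -0.25 to 0.30 for SUS1 intron 2, -0.50 to 4.12 for DYN2 intron 2 and -1.72 to 2.91 for YOS1 intron 2. Relative to host they gave -0.53 to 0.26 for SUS1 intron 1 at 4 h, -0.27 to 0.52 in the lawn, -0.85 to 2.58 for DYN2 intron 2 at 1 h and -1.74 to 1.55 for YOS1 intron 2 at 1 h. For intron 2 against intron 1 they gave -0.42 to 0.81 for SUS1 in saturation, -2.52 to 2.53 for DYN2 at 1 h, -0.28 to 4.76 for DYN2 at 4 h and -1.53 to 1.64 for YOS1 at 1 h. With limma SUS1 intron 1 at 4 h was -0.25 relative to host. With all introns centred on their median, SUS1 introns 1 and 2 were at -1.38 and -1.33 in saturation, -1.43 and -1.17 at 4 h, -2.04 and -0.68 in the lawn and -0.73 and -1.05 at 4 h against 1 h. On that scale DYN2 intron 1 was at -0.68 in the lawn and -0.96 at 4 h against 1 h, and EFM5 intron 1 at -0.49 at 4 h against 1 h.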
